A study of Mus musculus with 9 samples.

Results

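Antiviral restriction factors are proteins that block a step in the life of a virus inside or on the cell, and 10 genes of this kind were followed here: Mx1, Mx2, Bst2, Rsad2, Cmpk2, Apobec3, Samhd1, Ifitm3, Ifi27l2a and Rtp4. They were taken by symbol as genes of this role, with earlier results of these data known, and are 10 of the 24411 genes listed for each mouse. The 9 samples were hippocampi of male wild type C57BL/6J mice that the labels give as 10 weeks old, in 3 groups of 3 mice. All mice had received AAV9 into CA1 of the dorsal hippocampus on both sides, and tissue was taken 10 days later. In CUG10 mice the vector held 10 CTG repeats, placed within the Egfp 3′-UTR, and they received vehicle. CUG300 vehicle mice had 300 repeats and received vehicle, and CUG300 CWG-cPIP mice had 300 repeats and received 83 μg/kg CWG-cPIP, a cyclic pyrrole-imidazole polyamide that binds CAG and CTG repeat DNA. The virus and the vehicle or compound were injected as a mixture, every group carried the viral vector and the reporter, and the sources used here name neither the promoter that drives Egfp nor an uninjected group.

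Cells switch these genes on when type I interferon binds its receptor, which activates receptor-bound kinases and, through them, transcription factors. These bind the interferon-stimulated response element (ISRE) in promoters, while the response to interferon gamma acts mainly through the gamma-activated site (GAS). The products act at different steps. IFITM3 hinders the fusion of virus with endosomes, SAMHD1, APOBEC3, viperin (Rsad2) and CMPK2 act on nucleotides or nucleic acids, Mx proteins act on viral nucleocapsids, and tetherin (Bst2) holds new virions on the cell surface. In the brain, microglia, astrocytes, endothelial cells and neurons can all express such genes in response to interferon.

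Promoter sequences, 250 bases before to 50 bases after the RefSeq start on GRCm38.p6, were at hand for 6 of the 10 genes (Bst2, Rsad2, Cmpk2, Apobec3, Samhd1 and Ifitm3). Mx1, Mx2, Ifi27l2a and Rtp4 had no entry. The core of the ISRE was searched as GAAANNGAAA and the GAS as TTCNNNGAA, where N is any base, on both strands. An ISRE core was found in a window of 4 of the 6 genes, Bst2, Rsad2, Apobec3 and Ifitm3. In the whole RefSeq table it was found for 1079 of 27025 genes (3.99%) and in 1131 of 32851 windows of this length (3.44%). A GAS match was found for 3 genes, Bst2, Samhd1 and Ifitm3, and for 2582 genes of the table (9.55%). The stretches below hold the ISRE matches, and the one of Cmpk2, which lies beside Rsad2 on chromosome 12 and had neither motif in its window, is shown for comparison. Capitals mark ISRE cores on either strand, and each sequence is written 5′ to 3′ on the strand of its gene.
Bst2: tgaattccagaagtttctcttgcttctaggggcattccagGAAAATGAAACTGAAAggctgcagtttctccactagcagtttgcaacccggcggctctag
Rsad2: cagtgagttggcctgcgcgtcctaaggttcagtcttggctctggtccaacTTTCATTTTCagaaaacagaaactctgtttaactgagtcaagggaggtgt
Apobec3: catcagttagTTTCCCTTTCtctttgcgat
Ifitm3: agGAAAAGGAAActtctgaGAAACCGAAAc
Cmpk2: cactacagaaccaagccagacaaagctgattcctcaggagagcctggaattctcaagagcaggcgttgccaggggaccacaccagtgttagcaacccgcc
The Bst2 stretch is chr8:71537543-71537642 on the minus strand, from base −170 to −71 before the start, and its 2 cores, at −130 and −124, overlap each other. The first of them also overlaps a GAS match that begins at −136. The Rsad2 stretch is chr12:26456523-26456622 on the minus strand, and its core, read on the opposite strand, begins at −120. The Apobec3 stretch is chr15:79892258-79892287 on the plus strand and lies inside an exon of one Apobec3 transcript and of D730005E14Rik in GENCODE M21. The 30 bases of Ifitm3, chr7:141010715-141010744 on the minus strand, begin at the RefSeq start, lie in its annotated UTR and hold 2 cores, with a GAS match at 14 that overlaps the second. The Cmpk2 stretch is chr12:26469045-26469144 on the plus strand. A second RefSeq start of Apobec3 had no match, and the GAS match of Samhd1 began at −235. These matches are letters in a window and were not tested for binding.

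The deposited values are regularized logarithms (rlog) on the log2 scale, so a difference of 1 is a doubling, and rlog draws low or noisy genes toward their mean. Read numbers are not given with them, so depth is unknown. All 10 genes had a mean above log2(10) over the mice and entered a limma fit of the 14867 genes that did. Calls are at a Benjamini-Hochberg adjusted p under 0.05 over all of these genes. Median values over the genes tested lay between 8.43 and 8.54 per mouse, and the labels do not say whether replicates shared a litter or a day. In bulk tissue, fewer cells of a type and less RNA per cell cannot be told apart.

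All 10 genes were higher in CUG300 vehicle than in CUG10 mice, with differences from 1.81 for Cmpk2 to 4.19 for Mx1 on the log2 scale (3.51-fold to 18.2-fold) and a median of 2.75, against a median of −0.01 over all genes tested. Every gene passed the test, with limma adjusted p from 0.0207 for Ifitm3 and Rtp4 to 0.0243 for Samhd1, while 7.37% of all genes tested were called higher and 10.7% were called in either direction. In all 10, the lowest CUG300 vehicle mouse lay above the highest CUG10 mouse, which held for 18.2% of all genes. With 3 mice against 3, an exact permutation test cannot go below p = 0.1, and it gave 0.1 for each gene.

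The largest differences were those of the Mx genes. Mx1 and Mx2 encode dynamin-like GTPases that trap viral nucleocapsids, the mouse Mx1 protein in the nucleus and Mx2 in the cytoplasm. Most inbred laboratory strains, C57BL/6 among them, carry defective copies of both, so their transcripts are read here as transcripts only. GENCODE M21 lists Mx1 as protein coding and Mx2 as a polymorphic pseudogene, and RefSeq lists both as transcribed pseudogenes. On GRCm38, the build of all coordinates here, Mx1 lies at chr16:97447035-97462907 on the minus strand. It stood at 6.28, 7.09 and 6.66 in CUG10 replicates 1, 2 and 3, at 10.67, 10.60 and 11.32 in CUG300 vehicle mice and at 10.09, 7.42 and 11.12 with CWG-cPIP. Mx2 lies at chr16:97535308-97560900 on the plus strand, and had 6.70, 6.89 and 6.67 in CUG10 mice, 10.62, 10.04 and 11.17 in CUG300 vehicle mice and 9.73, 7.29 and 10.69 with CWG-cPIP. For both genes the vehicle-treated groups stood far apart, and the treated mice were split, with replicate 2 low and replicate 3 high. The rise in CUG300 vehicle mice was 4.19 for Mx1 (SE 0.77, 95% confidence interval 2.45 to 5.92, limma adjusted p = 0.0225) and 3.86 for Mx2 (SE 0.71, interval 2.25 to 5.47, limma adjusted p = 0.0227). The transcripts of the pair share 73 stretches of 75 bases, 1.71% of those of Mx1 and 2.01% of those of Mx2. A read lying wholly within such shared sequence matches both genes.

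**Figure D1:**
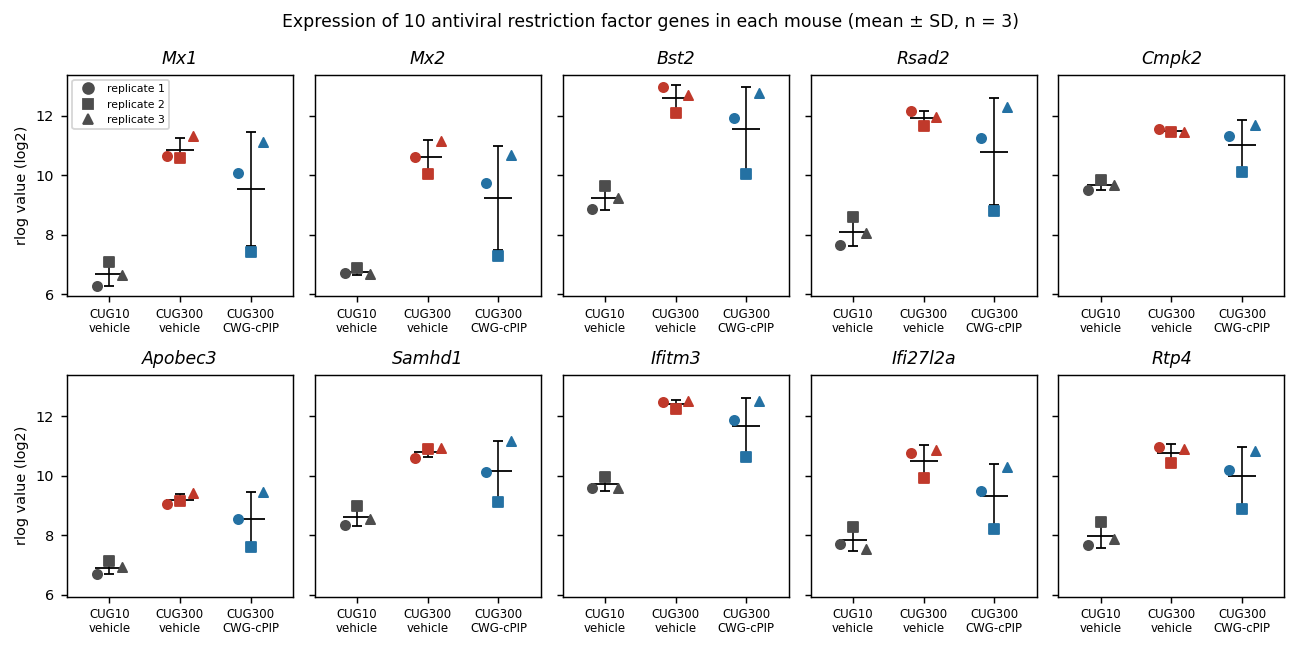
Each panel plots the rlog value (log2, vertical axis) of a gene in the 9 mice by group, with symbols for replicates 1, 2 and 3 and a bar for the mean ± SD of 3 mice. In all 10 panels the CUG10 and CUG300 vehicle mice do not overlap, and the 3 CWG-cPIP mice spread from replicate 2 at the bottom to replicate 3 at the top.

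Bst2 encodes tetherin, a membrane protein that ties budding enveloped viruses to the cell. It lies at chr8:71534255-71537456 on the minus strand. Its values were 8.86, 9.65 and 9.23 in CUG10 mice, 12.99, 12.10 and 12.71 in CUG300 vehicle mice and 11.92, 10.03 and 12.77 with CWG-cPIP. The difference between the vehicle-treated groups was 3.35 (SE 0.59, interval 2.01 to 4.69, limma adjusted p = 0.0222). Ifitm3, a small membrane protein that keeps viruses from fusing with endosomes, lies at chr7:141009586-141010770 on the minus strand and had 9.57, 9.97 and 9.59 in CUG10 mice, 12.46, 12.26 and 12.53 in CUG300 vehicle mice and 11.87, 10.63 and 12.51 with CWG-cPIP. Its SD in CUG300 vehicle mice, 0.14, was the smallest of the 10 after that of Cmpk2 (0.057), and its rise was 2.71 (SE 0.39, interval 1.83 to 3.59, limma adjusted p = 0.0207). Thus the genes acting at virus entry and at virus release both rose.

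Rsad2 and Cmpk2 are neighbors that face away from each other on chromosome 12, with starts 12752 bases apart and no annotated gene between them. Rsad2 encodes viperin, a radical SAM enzyme that turns CTP into a chain terminator of viral RNA, and Cmpk2 encodes a mitochondrial nucleoside monophosphate kinase. Rsad2, at chr12:26442746-26456452 on the minus strand, stood at 7.66, 8.59 and 8.07 in CUG10 mice, 12.16, 11.66 and 11.96 in CUG300 vehicle mice and 11.27, 8.81 and 12.31 with CWG-cPIP. Cmpk2, at chr12:26469204-26479837 on the plus strand, stood at 9.50, 9.86 and 9.69, then 11.56, 11.46 and 11.47, and 11.32, 10.11 and 11.68 in the same order. The neighbors thus separated the groups in the same way but over unlike ranges. Rsad2 rose by 3.82 (SE 0.72, interval 2.19 to 5.46, limma adjusted p = 0.0234), and Cmpk2 by 1.81 (SE 0.33, interval 1.06 to 2.56, limma adjusted p = 0.0223), the smallest rise of the 10 genes.

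Apobec3 and Samhd1 act on retroviral DNA, the first as a cytidine deaminase that edits single-stranded viral DNA and the second as a hydrolase that lowers the supply of deoxynucleotides. Apobec3, at chr15:79891659-79915906 on the plus strand, had 6.68, 7.13 and 6.92 in CUG10 mice, 9.05, 9.13 and 9.41 in CUG300 vehicle mice and 8.55, 7.60 and 9.45 with CWG-cPIP. Samhd1, at chr2:157097533-157135265 on the minus strand, had 8.33, 8.97 and 8.55 in CUG10 mice, 10.59, 10.90 and 10.93 in CUG300 vehicle mice and 10.12, 9.13 and 11.17 with CWG-cPIP. Of all pairs among the 10 genes, these profiles were the most alike, with a root mean square difference of 0.12 on the log2 scale over the 9 mice after subtracting each gene's CUG10 mean. Apobec3 rose by 2.28 (SE 0.38, interval 1.42 to 3.15, limma adjusted p = 0.0218) and Samhd1 by 2.19 (SE 0.42, interval 1.23 to 3.15, limma adjusted p = 0.0243). Apobec3 shares 7.15% of its exonic bases with D730005E14Rik on its own strand and 1.06% with Cbx7 on the opposite strand, so part of its value could belong to these genes.

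Ifi27l2a encodes a small hydrophobic membrane protein induced by interferon, and Rtp4 a Golgi chaperone of G protein-coupled receptors that is also an interferon-induced antiviral factor. Ifi27l2a, at chr12:103442167-103443680 on the minus strand, had 7.71, 8.28 and 7.53 in CUG10 mice, 10.75, 9.91 and 10.86 in CUG300 vehicle mice and 9.48, 8.20 and 10.30 with CWG-cPIP. Rtp4, at chr16:23520291-23614222 on the plus strand, had 7.65, 8.43 and 7.86 in CUG10 mice, 10.97, 10.42 and 10.91 in CUG300 vehicle mice and 10.20, 8.90 and 10.83 with CWG-cPIP. Ifi27l2a was the only gene of the 10 in which a treated mouse, replicate 2, fell inside the CUG10 range. Ifi27l2a rose by 2.67 in CUG300 vehicle mice (SE 0.48, interval 1.57 to 3.76, limma adjusted p = 0.0222) and Rtp4 by 2.79 (SE 0.43, interval 1.81 to 3.76, limma adjusted p = 0.0207). Rtp4 shares 13.9% of its exonic bases with Gm45338 on the same strand, and its annotated span of 93932 bases is far longer than its exonic length of 2131 bases.

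Each variance was pooled over all 9 mice, so these tests carry the spread of the treated mice. With only the 2 groups compared, all 10 genes passed with limma adjusted p from 8.31e-05 to 0.000817. When any 1 of the 3 CUG10 mice, or replicate 3 of the CUG300 vehicle group, was left out, 0 of the 10 passed (limma adjusted p from 0.0614 to 0.103), and without CWG-cPIP replicate 1 Samhd1 alone did not pass, at 0.0512. The differences themselves stayed between 1.72 and 4.39 over all 9 such fits. The share of all genes called in the fits of this paragraph is not given here, so their counts are not read as particular to the 10 genes.

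Relative to the CUG10 mean, the lift of each gene in each mouse is set out in the plot of differences by mouse. CUG10 replicate 2 was the highest CUG10 mouse for all 10 genes. Compared per length, by subtracting log2 of the exonic length in kilobases from the rlog value, Ifitm3 was the highest in every group (10.27 ± 0.22, mean ± SD of 3 mice, in CUG10 mice and 12.98 ± 0.14 in CUG300 vehicle mice) and Apobec3 the lowest (3.67 ± 0.23 and 5.95 ± 0.19). This length is the union of all annotated exons, for Apobec3 9454 bases over 20 transcripts. It can exceed that of the transcripts expressed, and the order depends on it. By rlog value alone Apobec3 (6.91) stood above Mx1 (6.68) and Mx2 (6.75) in CUG10 mice, and was lowest in both CUG300 groups. Per length, the order in CUG10 mice was Ifitm3, Bst2, Ifi27l2a, Cmpk2, Rtp4, Rsad2, Samhd1, Mx2, Mx1 and Apobec3. Bst2 and Ifi27l2a, Rsad2 and Samhd1, and Mx2 and Mx1 overlapped over the mice, and the other neighbors in the order did not. In CUG300 vehicle mice Rsad2, Rtp4, Cmpk2, Mx1 and Mx2 followed Ifi27l2a in this order with overlap between each neighboring pair, from 9.81 ± 0.25 for Rsad2 to 8.76 ± 0.56 for Mx2. Ifitm3 and Bst2 (12.75 ± 0.46) overlapped at the top. Rsad2 and Mx1 each stood 2 places higher in this order than in CUG10 mice, and Cmpk2 and Samhd1 2 places lower. With CWG-cPIP every pair of neighbors in the order overlapped.

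**Figure D2:**
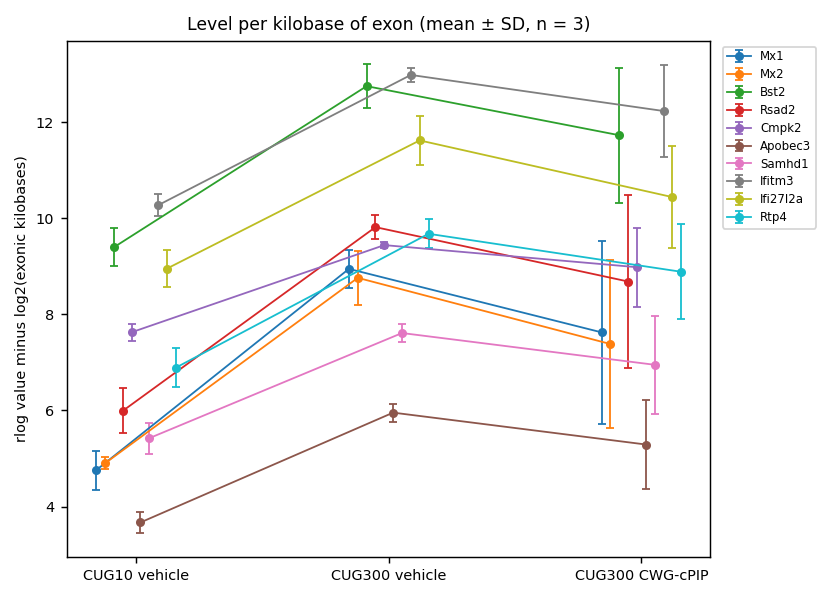
Levels per kilobase of exon (rlog value minus log2 of exonic kilobases, vertical axis) of the 10 genes in the 3 groups, with bars for the SD of 3 mice. Ifitm3, Bst2 and Ifi27l2a stand highest and Apobec3 lowest in every group, and the SDs are widest with CWG-cPIP.

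Between CWG-cPIP and vehicle in CUG300 mice, 0 of the 10 genes passed the test, nor did any of the 14867 genes (0% called lower). The 10 differences were all below 0, from −0.46 for Cmpk2 to −1.38 for Mx2, with a median of −0.91 against −0.0032 over all genes, and limma adjusted p lay between 0.483 and 0.513. The unadjusted p was under 0.05 for Ifi27l2a alone (−1.18, SE 0.48, interval −2.27 to −0.09, limma p = 0.0372, adjusted p = 0.483, exact permutation p = 0.2), and 3.6% of all genes were lower at that level. Treated and vehicle mice overlapped for all 10 genes, while 3.5% of all genes were lower without overlap. The widest interval, that of Mx1, ran from −3.06 to 0.42 around a difference of −1.32, and the narrowest, that of Cmpk2, from −1.21 to 0.29. Exact permutation p-values, two-sided, were 0.2 for Ifi27l2a and Rtp4 and 0.3 to 0.5 for the others.

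The treated mice were far from alike. For all 10 genes replicate 2 was lowest, replicate 1 between and replicate 3 highest, an order that 34.3% of all genes tested and 90.1% of the 1096 genes called higher in CUG300 vehicle mice also had. Replicate 1 lay between the CUG10 and the CUG300 vehicle mice for all 10 genes, replicate 2 did so for 9, and replicate 3 lay within the CUG300 vehicle range for 6 and above it for 4 (Rsad2, Cmpk2, Apobec3 and Samhd1). Over all genes tested these placements held for 10.2%, 6.27%, 77.0% and 11.9%, and over the genes called higher in CUG300 vehicle mice for 83.6%, 58.1%, 74.4% and 15.6%. Replicate 2 stood above the CUG10 mean by 0.36 to 0.92 and below the CUG300 vehicle mean by 1.39 to 3.44. Replicate 3 stood above the CUG10 mean by 2.00 to 4.44. The median SD over the 10 genes was 1.04 with CWG-cPIP, 0.27 in CUG300 vehicle mice and 0.36 in CUG10 mice, and over all genes tested it was 0.14, 0.22 and 0.10. Without CWG-cPIP replicate 2 the differences from vehicle shrank to between −0.62 for Ifi27l2a and 0.0035 for Cmpk2, and without replicate 3 they ran from −0.78 to −2.11 (limma adjusted p from 0.084 to 0.164). The size of this difference thus varied with the mouse left out.

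**Figure D3:**
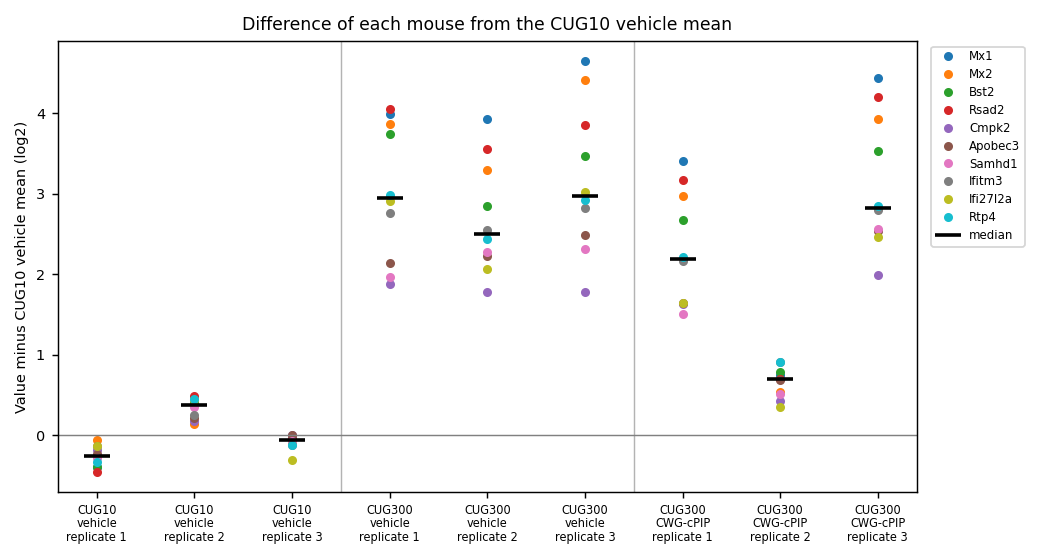
Each point is a gene's rlog value in 1 mouse minus its mean in the 3 CUG10 mice (log2, vertical axis), and black bars are medians over the 10 genes. The median is 2.19 in CWG-cPIP replicate 1, 0.70 in replicate 2 and 2.82 in replicate 3.

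Against CUG10 mice, 0 of the 10 genes passed in CWG-cPIP mice, and 0% of all genes were called higher. The differences ran from 1.35 for Cmpk2 to 2.87 for Mx1 with a median of 1.98, against 0.0005 over all genes, and limma adjusted p from 0.13 for Ifitm3 and Rtp4 to 0.25 for Ifi27l2a. At an unadjusted p under 0.05 all 10 were higher, as were 8.12% of all genes, and 9 of the 10 had no overlap with CUG10 mice, as had 13.4% of all genes. Without CWG-cPIP replicate 2 all 10 passed (1.82 to 3.93, limma adjusted p from 0.000777 to 0.0155), and without any other mouse 0 did. The share of all genes called in these fits is likewise not given, and leaving out a mouse changes the estimated spread of every gene. This comparison and the other two share mice, so their values are set side by side and not compared further.

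**Figure D4:**
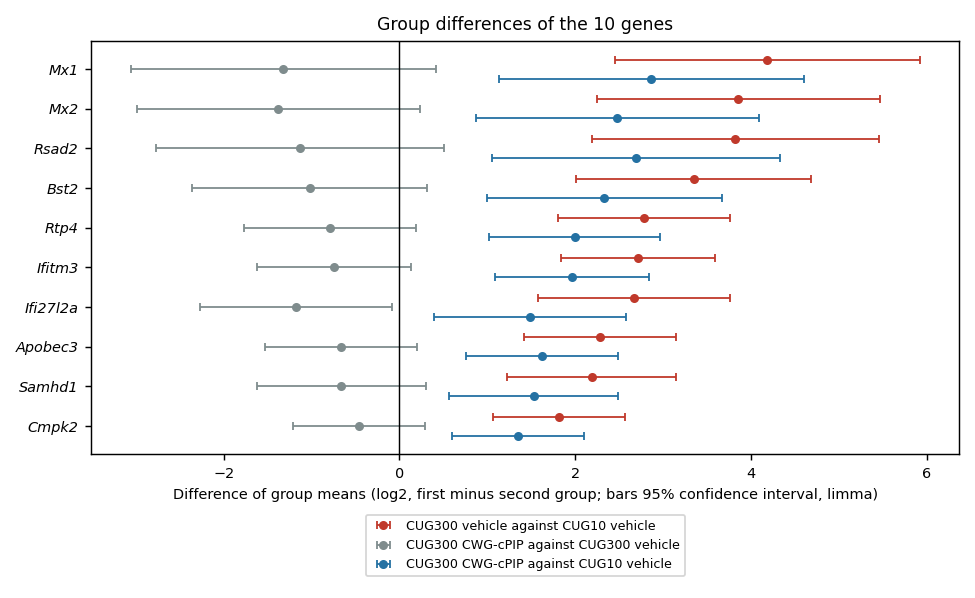
Differences of group means of the 10 genes (log2, horizontal axis) in the 3 comparisons, with 95% confidence intervals from limma. All intervals of CUG300 vehicle against CUG10 mice lie above 0, and of those of CWG-cPIP against vehicle the one of Ifi27l2a alone lies wholly below 0.

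Gene relatives of the 10 did not all move with them. Ifitm1, Ifitm2 and Ifitm6, neighbors of Ifitm3 on chromosome 7, rose in CUG300 vehicle mice by 1.60 (SE 0.35, limma adjusted p = 0.0293), 1.39 (SE 0.25, limma adjusted p = 0.0222) and 0.86 (SE 0.22, limma adjusted p = 0.0397), where Ifitm3 rose by 2.71. Ifitm7, on chromosome 16, and Ifitm10, farther along chromosome 7, stood at −0.05 and 0.00 (limma adjusted p = 0.864 and 0.995). Ifi27, beside Ifi27l2a on chromosome 12, stood at 0.40 (limma adjusted p = 0.351). Apobec1, a deaminase that edits RNA, rose by 2.30 (SE 0.49, limma adjusted p = 0.0273), and Cmpk1, the cytosolic relative of Cmpk2, stood at −0.10 (limma adjusted p = 0.532). Ifitm5, Ifi27l2b, Rtp1, Rtp2, Rtp3, Apobec2 and Apobec4 were too low to be tested. Of the 13 relatives tested, 4 rose, 2 fell and 7 did not pass, with a median of 0.00, while 7.37% of all genes were called higher and 3.34% lower. The 2 that fell, Dnm1 and Opa1, are dynamin family genes that share their fold with Mx. Of the 13, 0 passed with CWG-cPIP against vehicle, where 2 were higher and 1 was lower at an unadjusted limma p under 0.05. Of the 14867 genes tested, 777 were higher and 535 lower at that level.

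Other restriction factors were followed as a list of 32 symbols, of which 26 were in the files and 25 were tested. In CUG300 vehicle mice 21 rose, 0 fell and 4 did not pass, with a median of 2.12, while 7.37% of all genes tested were called higher. The largest rises were those of Ifi44, an interferon-induced cytoplasmic protein (3.65, SE 0.55, limma adjusted p = 0.0207), Isg20, an exonuclease that degrades viral RNA (3.32, SE 0.61, limma adjusted p = 0.0227), and Trim30a (2.93, SE 0.46, limma adjusted p = 0.0207). Zc3hav1, the zinc finger protein ZAP that binds CpG-rich viral RNA, rose by 2.24, Trim25, its partner and a ubiquitin ligase, by 2.06, and Mov10, an RNA helicase, by 1.45. Without CWG-cPIP replicate 1 the number that passed was 10, although leaving out a treated mouse changes only the spread and not these differences. The number that passed was 0 in each fit that left out a CUG10 mouse or replicate 3 of the CUG300 vehicle mice. With CWG-cPIP against vehicle 0 of the 25 passed (differences from −1.22 to 0.16), with 0 at an unadjusted limma p under 0.05. With CWG-cPIP against CUG10 mice 0 passed, and 22 were higher at an unadjusted limma p under 0.05, as were 8.12% of all genes. Without CWG-cPIP replicate 2, 21 passed. The share of all genes called in the fits that left out a mouse is not given.

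Among ligands, receptors and transducers of interferon, 24 genes were in the files and 19 were tested. In CUG300 vehicle mice 10 of these rose and 0 fell, with a median of 0.99, while 7.37% of all genes tested were called higher. Ifnb1, which encodes interferon beta, stood at 3.48 in each CUG10 mouse, at 5.12, 4.05 and 4.88 in CUG300 vehicle mice and at 3.89, 3.47 and 4.86 with CWG-cPIP. Its difference between the vehicle-treated groups was 1.20 (SE 0.36, limma adjusted p = 0.0603) and that of Ifng 0.67 (SE 0.19, limma adjusted p = 0.0521). Neither gene passed. For both, CUG300 vehicle mice were higher without overlap, as for 18.2% of all genes tested. The CUG10 values of Ifnb1 lay between 3.4755 and 3.4815, so alike that they may be a floor of rlog and not a measured level. Ifnar1, a chain of the type I receptor, stood at 0.12 (limma adjusted p = 0.525), and Ifnar2, the other chain, rose by 0.80 (SE 0.20, limma adjusted p = 0.0392). The largest rises were those of Irf7, a transcription factor that amplifies interferon production (3.59, SE 0.55, limma adjusted p = 0.0207), Usp18, which removes ISG15 and dampens the receptor (3.44, SE 0.59, limma adjusted p = 0.0218), and Irf1, a further interferon-induced transcription factor (2.93, SE 0.47, limma adjusted p = 0.0207). Ifnl2, Ifnl3, Ifne and Ifnk are listed at 0 in all 9 mice.

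Samhd1 depletes the pool of deoxynucleotides. Of 17 genes tested that supply this pool, 3 rose in CUG300 vehicle mice, 0 fell and 14 did not pass, with a median of 0.11. Among all genes tested, 7.37% were called higher. Rrm2, the small subunit of ribonucleotide reductase, rose by 0.69 (SE 0.16, limma adjusted p = 0.0343), Dck, the deoxycytidine kinase, by 0.56 (SE 0.14, limma adjusted p = 0.0409), and Tk1, the thymidine kinase of dividing cells, named after its value was seen, by 0.52 (limma adjusted p = 0.0393). Rrm1 stood at 0.08 and Rrm2b at −0.33 (limma adjusted p = 0.671 and 0.355).

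By the rule of likeness over the 9 mice, the genes nearest to the median profile of the 10 were Ifit3b, Irf1, Ube2l6, Ifi35 and Tor3a, with root mean square differences of 0.10 to 0.13 on the log2 scale, where the median over 14057 genes was 2.05. Ifit3b belongs to a family with near-identical copies, so its value is uncertain. Rtp4 and Ifitm3 were nearest to that median among the 10 themselves, at 0.09 and 0.13, and Mx1 farthest, at 1.06. In CUG300 vehicle against CUG10 mice these 5 genes stood between 2.69 (Tor3a) and 2.93 (Irf1).

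Markers of other cells moved along with the 10 genes in part. Of 10 monocyte and macrophage markers 6 rose in CUG300 vehicle mice and 0 fell, and the mean over the list lay between 6.02 and 6.51 in CUG10 mice, between 8.25 and 8.83 in CUG300 vehicle mice and at 7.68, 6.92 and 8.66 in CWG-cPIP replicates 1, 2 and 3. Of 11 T and NK cell markers tested 8 rose, with list means of 4.26 to 4.62, 5.57 to 6.06, and 5.08, 4.51 and 6.01. The treated mice thus had the same order in these lists as in the 10 genes. The defining marker Ccr2 of monocytes stood at 5.07 to 5.61 in CUG10 mice and at 7.71 to 8.71 in CUG300 vehicle mice, and Cd3e of T cells at 3.60 to 3.80 and 4.16 to 4.56. Of 10 microglial markers 3 rose, with list means of 8.78 to 9.11, 9.17 to 9.35 and 9.11 to 9.26 with CWG-cPIP. In CUG300 vehicle against CUG10 mice 7 of them were above 0 and 3 below, among these the defining markers P2ry12 (−0.34) and Sall1 (−0.12). Of 4 B cell markers tested 2 rose. Of 10 endothelial markers 2 rose, and of 8 astrocyte markers 2 rose, with 4 above 0 and 4 below. Beside the rises in these lists, 7.37% of all genes tested were called higher in CUG300 vehicle mice. Of 10 neuronal markers 1 fell, where 3.34% of all genes tested were called lower. All 10 were below 0 (median −0.42), 7 of them at an unadjusted limma p under 0.05 and 7 without overlap, as were 14.2% and 16.7% of all genes. All 8 oligodendrocyte markers were also below 0 (median −0.51). In CUG300 vehicle against CUG10 mice, 0 of 8 oligodendrocyte and 0 of 10 choroid plexus genes passed in limma, with 1 and 0 at an unadjusted p under 0.05. No defining marker of any list was at 0 in all mice, and neuronal markers such as Rbfox3 (11.91 to 12.06 in CUG10 mice) stood high, as the labelled tissue has them. The part of these cells in the differences of the 10 genes was not tested.

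**Figure D5:**
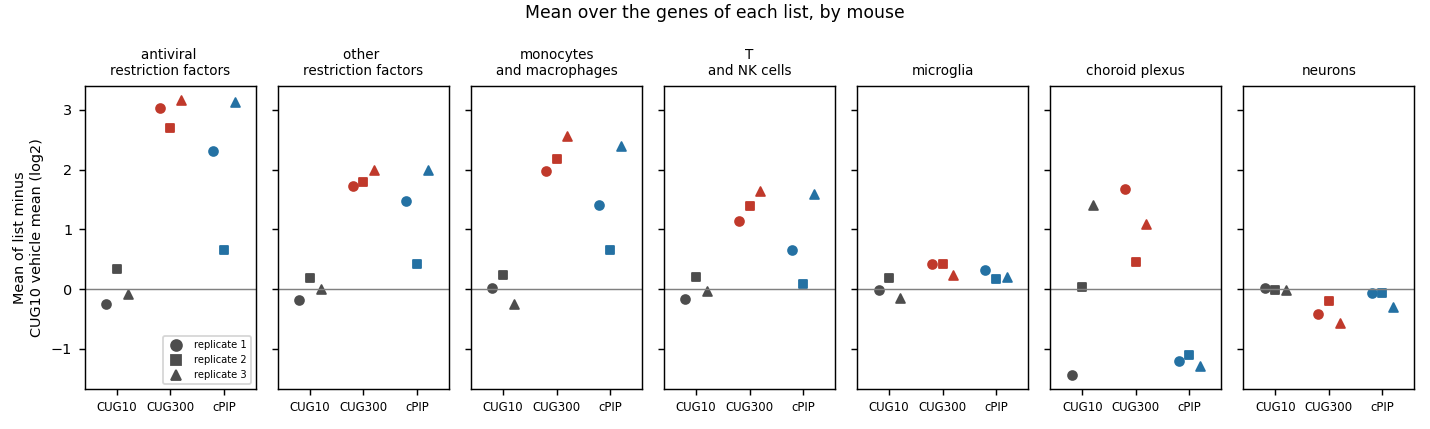
Mean over the genes of each list in each mouse, minus the mean of the 3 CUG10 mice (log2, vertical axis), for the 10 genes, other restriction factors and markers of 5 cell types, with cPIP for CUG300 CWG-cPIP. CWG-cPIP replicate 2 is lowest and replicate 3 highest of the treated mice for the 10 genes, other restriction factors, monocytes and macrophages, and T and NK cells, and all 3 treated mice are low for choroid plexus.

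Choroid plexus genes differed between mice in another pattern. The mean of 10 such genes was 6.04, 7.51 and 8.90 in CUG10 replicates 1, 2 and 3, 9.16, 7.93 and 8.56 in CUG300 vehicle mice and 6.28, 6.37 and 6.19 with CWG-cPIP. The part of this difference in the values of the 10 antiviral genes was not tested apart from the fit that follows. With CWG-cPIP against vehicle 0 of the 10 choroid plexus genes passed, and 9 were lower at an unadjusted limma p under 0.05 (median −2.12), as were 3.6% of all genes. With that mean as a covariate, an alternative chosen after seeing the data, the rises in CUG300 vehicle mice were 1.77 to 4.13, against 1.81 to 4.19 without it. With it, 0 of the 10 antiviral genes passed (limma adjusted p from 0.0854 to 0.0921). The share of all genes called is not given, so this count is not read as particular to the 10 genes. In the same fit the differences of CWG-cPIP from vehicle were −1.37 to −0.37 (limma adjusted p = 0.997). Those from CUG10 mice were 1.40 to 2.94 (limma adjusted p from 0.678 to 0.868). The covariate did not overlap between treated (6.19 to 6.37) and CUG300 vehicle mice (7.93 to 9.16), so this fit separates it poorly from treatment.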

How the data were processed

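RNA from 9 hippocampi was sequenced in paired reads by the authors after a directional library preparation. According to the submitters' notes the authors used Trim Galore 0.6.6, STAR 2.7.9a, RSEM 1.3.3 and mm10, and deposited log2 values made by the rlog function of DESeq2 1.36.0, which rescales counts between libraries and shrinks noisy genes. The annotation, the use of strand in counting and the rlog options are not given in the sources used here. No counts were at hand, so no count model was run and the precision from depth is unknown.

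Here, the 14867 of 24411 genes averaging log2(10) or more over the mice were fitted with limma 3.58.1 in R 4.3.3 (1 mean per group, all 9 mice, variance trend, 3.03 prior degrees of freedom, two-sided, Benjamini-Hochberg adjustment). The procedure was tested on simulated data. The limma p-values weigh a difference of group means against the spread between mice, pooled over the groups. Exact permutation tests were two-sided. Exonic lengths, coordinates and shared transcript stretches came from GENCODE M21 (GRCm38, the authors' build) by symbol, and all 10 genes matched. Promoters came from RefSeq on GRCm38.p6. In 27 rows, spreadsheet dates replaced symbols, and these rows are not named.

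The 10 genes and all lists were chosen with earlier results of these data known. Named genes were the 10, their relatives by family prefix, in each other list the first 4 tested and the 3 largest differences between the vehicle-treated groups, and the 5 nearest profiles, without predicted gene names. A gene that this rule names is not reported here. The fit was repeated after median centering, after quantile scaling, with every gene kept, with a floor of log2(100), and without the trend, and with robust limma, an adjusted p under 0.01, a log2 difference over 0.5, only the 2 groups compared, a replicate block and leaving out each mouse. A choroid plexus covariate was added after seeing the data. The value ± SD is over 3 mice.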

Additional observations from a re-analysis of the deposited data

How the results depend on the processing

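Between CUG300 vehicle and CUG10 mice, 0 of the 10 genes and 0 of the 25 other restriction factors passed at an adjusted p under 0.01. Nor did any other gene, as the smallest limma adjusted p over all 14867 genes tested was 0.0207. With the choroid plexus covariate, which was chosen after seeing the data, 0 of the 10 and 0 of the 25 passed. The share of all genes called with it is not given. In all other settings that kept every mouse, all 10 genes passed and the 10 differences kept their sign. Leaving out single mice, with the share of all genes called not given, gave 0 to 10 genes and 0 to 22 other restriction factors. In CWG-cPIP against CUG10 mice it gave 0 to 10 and 0 to 21, and in CWG-cPIP against vehicle 0 throughout. There the difference of Cmpk2 turned from −0.46 to 0.0035 without CWG-cPIP replicate 2 and was −0.78 without replicate 3, and the cause was not tested. With the replicate block, 10, 0 and 0 of the 10 genes passed in the 3 comparisons, as without it (limma adjusted p from 0.0333 to 0.0336, 0.433 to 0.497 and 0.219 to 0.284). Deviations of same-numbered mice from their group means correlated between −0.499 and 0.413, and not every mouse correlated best with its own number. Since the deviations of the 3 mice of a group sum to 0, these correlations cannot settle whether replicates shared a litter or a day. Unknown depth leaves the error of low genes, such as Ifnb1, unmeasured.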
